A study of Mus musculus with 10 samples.

Results

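The GABA system was followed here through 28 genes chosen by name for their function: 16 subunits of the GABA-A receptor, both subunits of the GABA-B receptor, the synthesising enzymes Gad1 and Gad2, the degrading enzyme Abat, the transporters Slc6a11, Slc6a13 and Slc32a1, the postsynaptic proteins Gphn and Nlgn2, and the chloride cotransporters Slc12a5 and Slc12a2. All 28 were measured among 19938 genes on the array, each by its brightest probe set that carries a single gene symbol. Other genes of GABA signalling were not analysed here unless they are named below. No GABA gene passed limma between genotypes after adjustment. The rank method FCROS, which passed 5.06% of all genes, passed Gabrr1 alone, a gene among the dimmest 40%. Differences, Dp5/Dp1 minus control, ran from -0.12 on the log2 scale for Gabrr1 to 0.18 for Slc6a13, and Gad1, with a difference of 0.09, was the only gene of the 28 whose groups did not overlap.

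RNA from both hippocampi of male mice aged 16 weeks was hybridised to Affymetrix Mouse Gene 1.0 ST arrays, with 1 array per mouse and 5 mice per genotype. The Dp5/Dp1 mice carried a duplication of the Cyyr1 to Clic6 segment of mouse chromosome 16 (Dp5Yah) together with a duplication of the Cbr1 to Fam3b segment of the same chromosome (Dp1Rhr), as a compound model of Down syndrome. The controls carried neither duplication, were littermates from the cross of both lines, and also serve as controls of the single Dp5Yah and Dp1Rhr lines; their labels mark them as a reanalysis. The labels give a C57BL/6N background and the study's methods a C57BL/6J background for these lines. Titles of the mutant samples give Dp5Yah first and the compound model only in brackets, so the genes of both duplicated segments were read. The mean log2 level of the 82 genes measured in the Dp5Yah interval lay between 7.09 and 7.17 in the controls and between 7.28 and 7.34 in the Dp5/Dp1 mice, and that of the 31 genes in the Dp1Rhr interval between 8.03 and 8.05 against 8.21 and 8.26.

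GABA is the main inhibitory transmitter of the adult brain. It is made from glutamate in interneurons, loaded into vesicles, and opens chloride channels, the GABA-A receptors, each assembled from subunits of several classes, while GABA-B receptors act more slowly through G proteins and potassium channels. Transporters on neurons, glia and meningeal cells take GABA up again, and the balance of chloride cotransporters sets whether the channel inhibits or excites. Excess inhibition is a long-standing theme in the study of Down syndrome mouse models.

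Of the 28 genes 0 were called at an adjusted p under 0.05 (limma, Benjamini-Hochberg over all genes), where 41 of 19938 genes, 0.206%, were called in all (0.201% higher and 0.00502% lower), and 4 of these calls lay outside the duplicated segments. At an unadjusted p under 0.05 there were 3, Gad1 higher and Gabrb1 and Gabrr1 lower, beside 6.06% of all genes. For 1 gene, Gad1, every mutant array exceeded every control, beside 0.762% of all genes, and for 0 genes every mutant array was below every control, beside 0.321%. FCROS, the rank method of the study rewritten here, passed 1 gene, Gabrr1, beside 5.06% of all genes. With counts of 0 to 3 in 28, none of these is read as a result about GABA genes as a group.

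The mean was lower in Dp5/Dp1 mice for 21 of the 28 genes, or 75.0%, against 48.5% of all genes. Among the 18 receptor subunits it was lower for 15. The median difference was -0.011 for the GABA genes and 0.0019 for all genes. The median standard deviation between mice of one genotype was 0.0701 for the GABA genes and 0.0698 for all. That is the spread of single genes and not the error of a median over 28 genes, so it does not measure this shift. The share of lower means was not tested. The direction was not the same for each gene under other settings, and 19 of the 28 changed sign in at least 1 of them. The 95% intervals bounded how large a difference in array signal these 10 arrays allow. They lay within a change of 1.2-fold for 25 genes, with Gabrr2, Slc6a13 and Slc12a2 outside, and within 1.5-fold for all 28. The interval lay within 1.2-fold for 92.2% of all genes. Of the 28 genes, 6 were among the dimmest 40%, where signals lie near background and a narrow interval says little about RNA. The mean log2 levels of the duplicated Dp5Yah and Dp1Rhr intervals differed by 0.17 and 0.20. These means include dim genes, 43 of 82 and 11 of 31 being among the dimmest 40%, so they do not give the difference of an expressed duplicated gene. How far array signal understates a change in RNA was not tested.

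**Figure D1:**
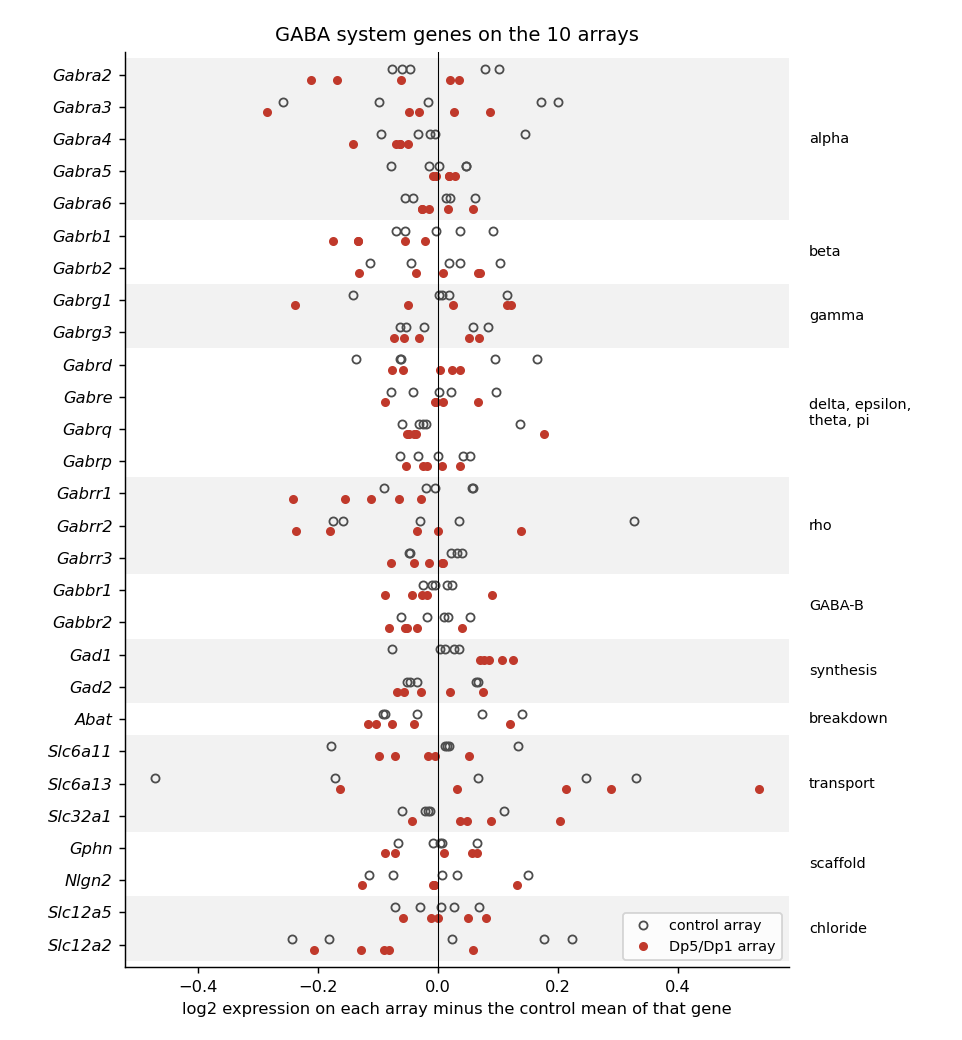
Each point is 1 array, plotted as its log2 expression minus the control mean of that gene, with open grey circles for the 5 controls and filled red circles for the 5 Dp5/Dp1 mice; genes are grouped by role. The groups overlap for every gene except Gad1, and the widest scatter is that of Slc6a13.

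**Figure D2:**
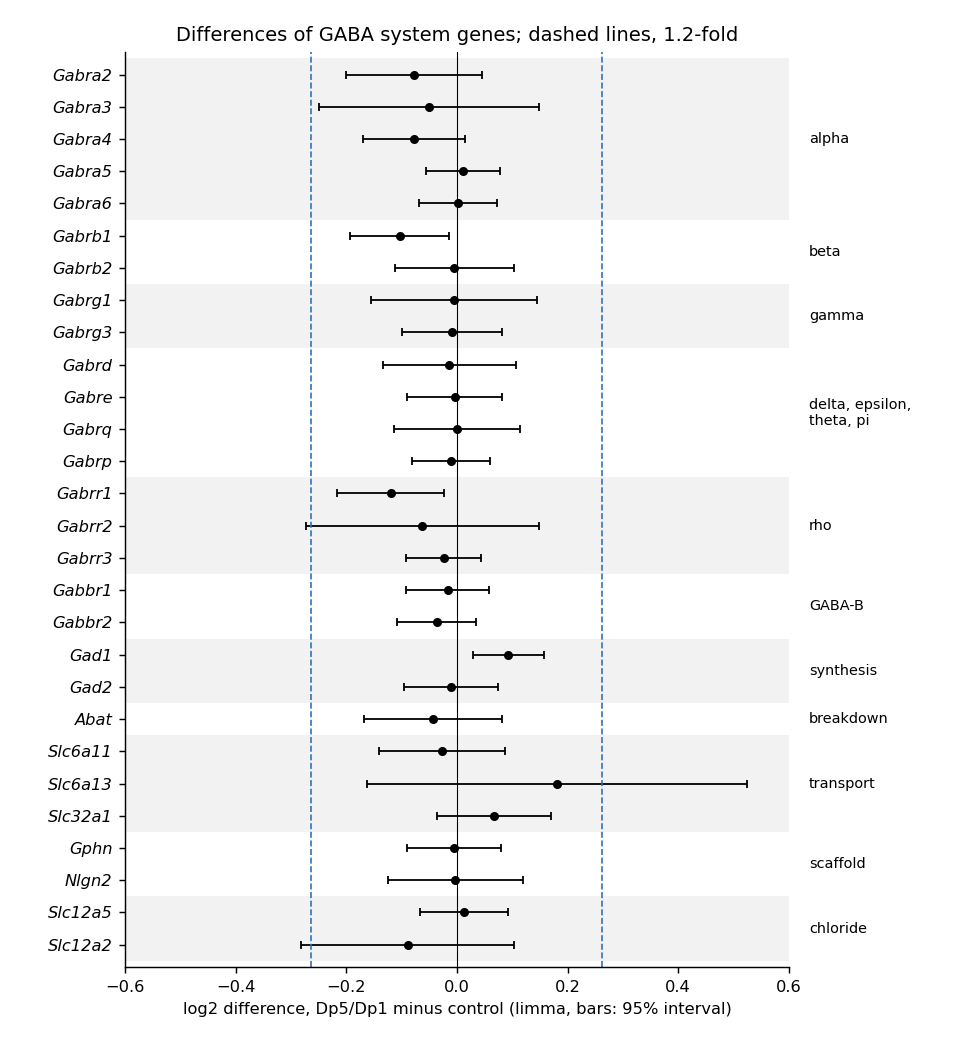
Points are the log2 differences, Dp5/Dp1 minus control, and bars their 95% intervals from limma (n = 5 per group); dashed lines mark a change of 1.2-fold. The intervals of Gad1, Gabrb1 and Gabrr1 leave out 0, without passing adjustment over all genes, and those of Gabrr2, Slc6a13 and Slc12a2 cross a dashed line.

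Gad1 encodes GAD67, the enzyme that makes most of the GABA in the cell body. Its log2 level was 11.20, 11.28, 11.31, 11.29 and 11.30 on the control arrays and 11.38, 11.36, 11.35, 11.40 and 11.35 on the Dp5/Dp1 arrays. The lowest mutant lay above the highest control, and control 1 stood below the other 4. The difference was 0.09 ± 0.03 (SE, n = 5 per group), a fold of 1.07 with a 95% interval of 1.02 to 1.11, and the limma p of 0.00876 became 0.714 after adjustment over all genes. Leaving out each array in turn gave 0.07 to 0.10. Gad1 also had the smallest standard deviation within genotypes of the 28, 0.0351. The span of a longer RefSeq model of Gad1 and of the antisense gene Gad1os overlap its start.

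Gad2 encodes GAD65, the enzyme of the synaptic terminal. Its level was 10.57, 10.55, 10.67, 10.67 and 10.56 in the controls and 10.55, 10.58, 10.54, 10.68 and 10.62 in the Dp5/Dp1 mice, so the groups overlapped throughout. The difference was -0.011 ± 0.04 (SE, n = 5 per group). The gap between the enzymes within one array, Gad1 minus Gad2, was 0.67 ± 0.06 (SD, n = 5) in the controls and 0.77 ± 0.05 (SD, n = 5) in the Dp5/Dp1 mice. The gaps differed by 0.10 ± 0.04 (SE), with an exact two-sided permutation p of 0.0476, or 0.0952 after adjustment over the 2 such gaps computed, and both were chosen after the values were seen.

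Slc32a1 encodes VGAT, which loads GABA into synaptic vesicles. Its level was 8.35, 8.39, 8.40, 8.52 and 8.39 in the controls and 8.45, 8.37, 8.50, 8.46 and 8.61 in the Dp5/Dp1 mice. Control 4 was high among the controls and lay above 4 of the 5 mutants. The difference of 0.07 ± 0.05 (SE, n = 5 per group) had an unadjusted limma p of 0.182. It was 0.03 without mutant 5 and 0.09 without control 4.

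**Figure D3:**
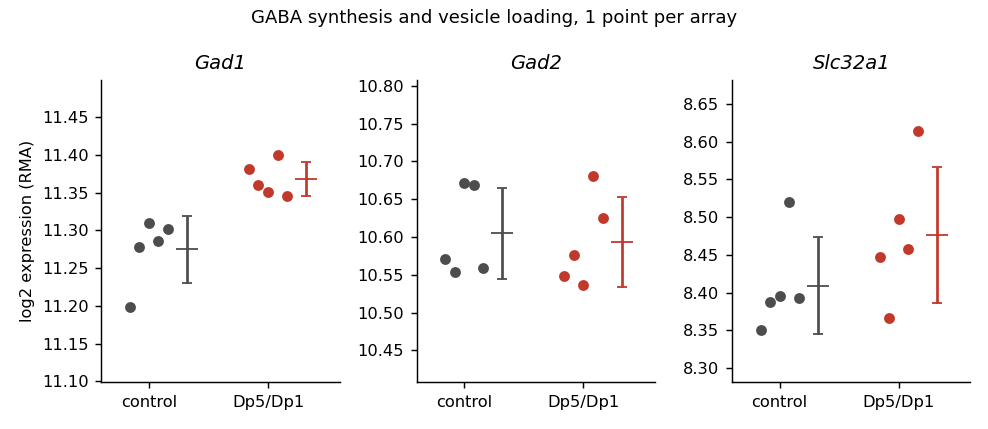
Log2 expression of Gad1, Gad2 and Slc32a1 on each array, 1 point per mouse, with the mean and SD of the 5 mice of each genotype beside the points; each panel spans 0.4 on the log2 scale. The Gad1 groups are apart, with means of 11.27 and 11.37, while those of Gad2 and Slc32a1 overlap.

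The mean of 17 interneuron markers, none of them among the 28, ranged from 8.64 to 8.84 in the controls and from 8.79 to 8.90 in the Dp5/Dp1 mice. Control 1, also the lowest Gad1 array, alone held the value of 8.64, and the other controls lay between 8.75 and 8.84. The mean was higher in the mutants for 12 of the 17, beside 10272 of all 19938 genes. An unadjusted limma p under 0.05 was reached by 4, all higher, among them Kcnip1 and Pvalb, beside 3.39% of all genes. None of the 17 passed the adjustment of limma, and the adjusted p of Kcnip1 and of Pvalb was 0.806. With the interneuron mean as a covariate the Gad1 difference was 0.0625 with an unadjusted limma p of 0.0668. With leptomeninges, astrocyte or choroid plexus markers as the covariate instead, it was 0.0939, 0.0928 and 0.0839. The unadjusted limma p of these fits was 0.0069, 0.0128 and 0.0153. The mean of Gad1, Gad2 and Slc32a1 went with the interneuron mean over the 10 arrays at r = 0.427 (permutation p = 0.222, adjusted 0.333 over 3 relations computed; rho = 0.236, permutation p = 0.516), and r was -0.0929 without the 2 arrays farthest from the median marker mean, replicate 1 of each genotype. The part of interneuron content in the Gad1 difference was not tested, and in whole tissue fewer or more cells of a type cannot be told apart from less or more RNA per cell.

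The alpha subunits help form the GABA binding site and set where a receptor sits. Gabra2 was 11.33, 11.47, 11.49, 11.34 and 11.31 in the controls and 11.22, 11.41, 11.33, 11.42 and 11.18 in the Dp5/Dp1 mice. The Gabra2 difference was -0.08 ± 0.06 (SE, n = 5 per group), -0.04 without mutant 5 and -0.11 without mutant 4. Gabra4, a subunit of receptors outside the synapse, was 11.78, 11.62, 11.63, 11.54 and 11.60 against 11.57, 11.56, 11.57, 11.58 and 11.49. The Gabra4 difference was -0.08 ± 0.04 (SE). It was -0.04 without control 1, the highest array, and -0.10 without control 4. The Gabra3 difference was -0.05 ± 0.09 (SE), with controls from 11.23 to 11.69 and mutants from 11.20 to 11.58, one of the widest spreads of the 28. Gabra5, which is strongly enriched in the hippocampus, differed by 0.01 ± 0.03 (SE) with a 95% interval of -0.06 to 0.08. Gabra6, a gene of cerebellar granule cells, was dim at 4.86 to 4.97 on all 10 arrays and differed by 0.0014 ± 0.03 (SE).

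The beta subunits complete the GABA binding site. Gabrb1 was 11.56, 11.42, 11.40, 11.47 and 11.51 in the controls and 11.30, 11.34, 11.34, 11.45 and 11.42 in the Dp5/Dp1 mice. Mutants 1 to 3 were below every control, while mutants 4 and 5 lay among them. The difference was -0.10 ± 0.04 (SE, n = 5 per group) with a 95% interval of -0.19 to -0.01, an unadjusted limma p of 0.0277 and an adjusted p of 0.806. It ranged from -0.12 to -0.08 as each array was left out, and was -0.0561 with interneuron markers as a covariate. With leptomeninges, astrocyte or choroid plexus markers as the covariate instead, it was -0.104, -0.108 and -0.0879. Gabrb2 was measured by 3 probe sets, and their differences of -0.0048, -0.015 and -0.05 were all within the spread of the arrays.

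Gabrb1 lies in the receptor cluster of chromosome 5, beside Gabrg1, Gabra2 and Gabra4, between positions 70751047 and 72149572 (GRCm38.p6). All 4 genes of this cluster had lower means in the Dp5/Dp1 mice, from -0.10 for Gabrb1 to -0.0052 for Gabrg1. The 5′ ends of Gabra4 and Gabrb1 overlap in the annotation. A cluster on chromosome 7 holds Gabra5 and Gabrg3, which differed by 0.01 and -0.0084, and one on chromosome 11 holds Gabra6 and Gabrb2.

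Gabrg1 and Gabrg3, gamma subunits that place receptors at synapses, differed by -0.0052 ± 0.07 and -0.0084 ± 0.04 (SE). Gabrd, the delta subunit of receptors outside the synapse, differed by -0.014 ± 0.06 (SE), with 3 controls between 8.69 and 8.77 and the others at or above 8.93. Gabre, Gabrq and Gabrp, the epsilon, theta and pi subunits, differed by -0.0044, 0.0004 and -0.011, each within its standard error. These 3 genes, with Gabra6, Gabrr1 and Gabrr3, were among the dimmest 40% of genes, below a mean of 6.78, where signals lie near background and RMA compresses differences.

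The rho subunits form GABA channels best known from the retina. Gabrr1 was 5.79, 5.87, 5.80, 5.87 and 5.72 in the controls and 5.65, 5.78, 5.57, 5.70 and 5.75 in the Dp5/Dp1 mice. Mutants 2 and 5 overlapped the lowest control, and the other 3 were below every control. The difference was -0.12 ± 0.04 (SE, n = 5 per group) with an unadjusted limma p of 0.020 and an adjusted p of 0.806, and ranged from -0.14 to -0.09 as each array was left out. It was -0.17 without mutants 2 and 5, which hold the highest medial habenula marker means. Gabrr2, next to it on chromosome 4, differed by -0.06 ± 0.10 (SE), with control 4 at 7.21 above all other arrays. Gabrr3 differed by -0.02 ± 0.03 (SE); it lies on chromosome 16 at 59407382 to 59461739, outside both duplicated segments.

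The RefSeq promoter windows of the genes with the lowest and the highest difference, Gabrr1 and Slc6a13, are shown as context for these results, since no other gene model covers them. They are the 250 bases before the start, read from GRCm38.p6 on the plus strand at chr4:33132306-33132555 and chr6:121300038-121300287. Capitals mark any match, on either strand, to the GC box GGGCGG, to the core promoter motif TATAAA, and to TGACG, which is part of the cAMP response element.
Gabrr1: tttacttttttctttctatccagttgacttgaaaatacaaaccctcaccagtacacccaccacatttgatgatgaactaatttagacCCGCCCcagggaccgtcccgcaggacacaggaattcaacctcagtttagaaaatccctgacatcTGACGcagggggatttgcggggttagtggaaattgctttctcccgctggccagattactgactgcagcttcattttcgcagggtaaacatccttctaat
Slc6a13: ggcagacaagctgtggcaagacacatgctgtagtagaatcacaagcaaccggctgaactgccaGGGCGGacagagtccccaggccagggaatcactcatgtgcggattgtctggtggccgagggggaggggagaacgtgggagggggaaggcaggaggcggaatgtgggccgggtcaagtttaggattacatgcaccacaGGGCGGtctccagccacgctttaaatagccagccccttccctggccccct
The Gabrr1 window holds 1 GGGCGG and 1 TGACG, with 7 CG pairs, and the printed window of Slc6a13 holds 2 GGGCGG and 9 CG pairs. Slc6a13 has further RefSeq windows inside the gene, not printed, which hold 0 GGGCGG, with 6 and 2 CG pairs. GGGCGG is in 32.7% and TGACG in 17.8% of 32851 windows of this length, and the median window has 6 CG pairs. These matches describe the letters only.

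Gabbr1 and Gabbr2 encode the partner subunits of the GABA-B receptor. Gabbr1 differed by -0.02 ± 0.03 and Gabbr2 by -0.04 ± 0.03 (SE, n = 5 per group), and both 95% intervals lay within a change of 1.1-fold. Mutant 2 was the highest Gabbr1 array at 12.31.

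Abat, the transaminase that breaks GABA down, was 12.00, 11.83, 11.77, 11.93 and 11.77 in the controls and 11.76, 11.82, 11.79, 11.75 and 11.98 in the Dp5/Dp1 mice. Mutant 5 and control 1 stood at the top of their groups. The difference was -0.04 ± 0.06 (SE, n = 5 per group). Abat is on chromosome 16 at 8513429 to 8621568, outside both duplicated segments.

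Slc6a11 encodes GAT3, the GABA transporter of astrocytes. It differed by -0.03 ± 0.05 (SE, n = 5 per group), with control 5 lowest of all at 10.95. Against the mean of 12 astrocyte markers, which lay between 10.76 and 10.89 in the controls and between 10.76 and 10.87 in the mutants, it had r = 0.0869 over the 10 arrays (permutation p = 0.809, adjusted 0.809; rho = 0.285, permutation p = 0.427; r = 0.193 without the 2 arrays farthest from the median).

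Slc6a13 encodes GAT2, a GABA transporter of meningeal and vascular cells. It was 8.10, 7.86, 8.36, 8.28 and 7.56 in the controls and 8.57, 8.32, 8.25, 7.87 and 8.07 in the Dp5/Dp1 mice. The groups overlapped, with mutants between 7.87 and 8.57 and controls between 7.56 and 8.36, and the within-genotype standard deviation of 0.296 was larger than that of 99.1% of all genes. The difference of 0.18 ± 0.16 (SE, n = 5 per group) was 0.06 without control 5 and 0.27 without mutant 4. Its limma p was 0.272 before adjustment. With the mean of 12 leptomeninges markers it had r = 0.457 over the 10 arrays (permutation p = 0.185, adjusted 0.333; rho = 0.382, permutation p = 0.279), and r = 0.552 without the 2 arrays farthest from the median. Those markers ranged from 7.18 to 7.74 in the controls and from 7.24 to 7.61 in the Dp5/Dp1 mice; their part in the spread of Slc6a13 was not tested.

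Gphn and Nlgn2, the scaffold and the adhesion protein of inhibitory synapses, differed by -0.0055 ± 0.04 and -0.0029 ± 0.06 (SE, n = 5 per group). Both intervals lay within 1.1-fold.

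Slc12a5 encodes KCC2, which lowers neuronal chloride, and Slc12a2 encodes NKCC1, which raises it and is also rich in the choroid plexus. Slc12a5 was 11.15, 11.23, 11.29, 11.20 and 11.25 in the controls and 11.23, 11.21, 11.28, 11.30 and 11.17 in the Dp5/Dp1 mice, a difference of 0.01 ± 0.04 (SE, n = 5 per group). Slc12a2 was 10.13, 9.77, 9.71, 10.17 and 9.97 against 9.74, 9.87, 9.82, 9.86 and 10.01, a difference of -0.09 ± 0.09 (SE) that was -0.15 without control 3 and -0.03 without control 4. Controls 1, 4 and 5 and mutant 5 were the 4 highest. The within-array gap Slc12a5 minus Slc12a2 was 1.27 ± 0.25 (SD, n = 5) in the controls and 1.38 ± 0.13 (SD, n = 5) in the mutants. The gap differed by 0.10 ± 0.13 (SE), with an exact two-sided permutation p of 0.429 before and after adjustment over the 2 gaps, and this difference was 0.18 without control 3 and 0.038 without control 4.

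The mean of 13 choroid plexus markers split the arrays into a low set of 5 between 6.65 and 7.04 and a high set of 5 between 7.93 and 8.54, so no correlation was computed. The high set was controls 1, 4 and 5 and mutants 3 and 5, and it includes the 4 arrays highest in Slc12a2. With the choroid plexus mean as a covariate the Slc12a2 difference was -0.03. With astrocyte, leptomeninges or interneuron markers as the covariate instead, it was -0.079, -0.094 and 0.0487. All 13 choroid plexus markers had a lower mean in the Dp5/Dp1 mice. The part of choroid plexus tissue in the Slc12a2 values was not tested.

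**Figure D4:**
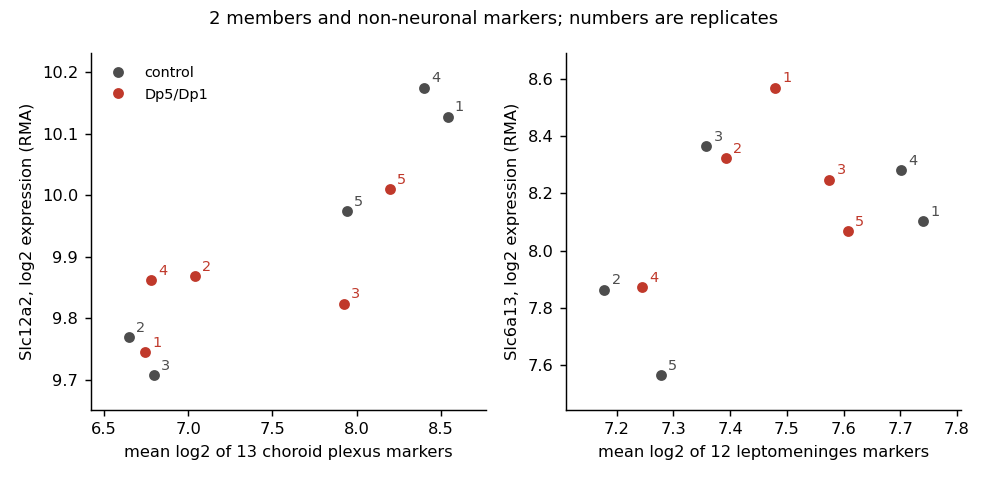
Left, log2 expression of Slc12a2 against the mean log2 level of 13 choroid plexus markers; right, Slc6a13 against 12 leptomeninges markers; each point is 1 array, grey for control and red for Dp5/Dp1, numbered by replicate. The 4 arrays with the highest Slc12a2 all have choroid plexus means of at least 7.94, and the Slc6a13 values scatter over the marker range.

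Other marker lists were read as well, and their means do not separate cell content from RNA per cell. The medial habenula list includes Chrna3, which the study reports as upregulated in the Dp1Rhr and Dp5/Dp1 models. Mutants 2 and 5 had the highest medial habenula means, 8.55 and 7.88, against 7.05 to 7.54 in the controls, and thalamus markers had lower means in the mutants for 10 of 11. The 11 markers of hippocampal excitatory neurons had means from 9.98 to 10.10 on all 10 arrays, with none among the dimmest 40% of genes. Cerebellar granule cell, striatum and oligodendrocyte lists had means that overlapped between genotypes.

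Outside the 28, 46 of 49 listed genes of GABA signalling were measured, and limma called 0, beside the same 0.206% of all genes. FCROS passed 5, Kcnj6 and Slc6a12 higher and Hap1, Slc38a2 and Wnk1 lower, beside 5.06% of all genes. At an unadjusted limma p under 0.05, 2 were higher and 4 lower, beside 3.39% and 2.67% of all genes. Of the 45 genes outside the duplicated segments, FCROS passed 1 higher and 3 lower. At an unadjusted limma p under 0.05, 1 of these 45 was higher and 4 were lower. None of these counts is read as a result about GABA signalling genes as a group. Kcnj6, the GIRK2 potassium channel opened by GABA-B receptors, lies in the Dp1Rhr segment at 94744980 to 94997696 of chromosome 16. Its level was 8.73, 8.70, 8.66, 8.74 and 8.85 in the controls and 8.85, 9.02, 8.92, 9.02 and 8.94 in the Dp5/Dp1 mice. All mutants were above all controls, by 0.0013 for the closest pair. The difference was 0.21 ± 0.04 (SE, n = 5 per group) with a limma p of 0.000402 and an adjusted p of 0.160. Rgs7, a regulator of the same signalling, differed by 0.03 ± 0.03 (SE).

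Slc6a12, the betaine and GABA transporter next to Slc6a13 on chromosome 6, was 6.85, 6.73, 6.92, 6.84 and 6.79 in the controls and 7.22, 7.14, 6.89, 6.95 and 6.96 in the Dp5/Dp1 mice. Only mutant 3 lay among the controls. The difference was 0.21 ± 0.06 (SE, n = 5 per group). Its limma p was 0.00703 and its adjusted p 0.675. Slc6a12 had a control mean of 6.82, close to the 6.78 below which genes were among the dimmest 40%. The Slc6a12 difference was 0.165 with choroid plexus and medial habenula markers as covariates. With 1 marker list as the covariate it ranged from 0.193 to 0.217. Slc38a2, a glutamine transporter, differed by -0.21 ± 0.09 (SE), with mutants 1 and 5 the lowest arrays. Of the trafficking genes, Trak2 differed by -0.10 ± 0.04 and Hap1 by -0.20 ± 0.08 (SE). Of the kinases that regulate the chloride cotransporters, Wnk1 differed by -0.13 ± 0.05 and Oxsr1 by 0.08 ± 0.05 (SE). The lowest adjusted p of any of the 28 GABA genes, over all settings tried, was 0.476.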

How the data were processed

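Log2 expression values, made by the authors with RMA (background correction, quantile normalisation and probe set summary) from Mouse Gene 1.0 ST arrays, were deposited for 10 samples, 5 control and 5 Dp5/Dp1; the submitters' notes also name limma and the build mm10, without versions. Of 35556 probe sets, 21789 carried 1 symbol and were used, 1621 carried several and 12146 none. The labels give a larger RNA input than the study's methods. Array medians lay between 6.73 and 6.80, and correlations between arrays between 0.996 and 0.999. The number of arrays limits the precision.

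The groups were compared with limma 3.58.1 (R 4.3.3; linear fit with moderated variance, Benjamini-Hochberg over 19938 genes, called at an adjusted p under 0.05), checked on simulated data. FCROS was rewritten from the study's description with f-values under 0.025 or above 0.975. Correlations used 100000 permutations. All 28 members are named, and of each other list the 2 genes with the lowest p, Kcnj6 besides; marker lists give their means. The members and lists were chosen with earlier results of these data known. Alternatives covered the filter on dim genes, normalisation, centring, probe sets, variance model, array weights, the replicate number, marker covariates and arrays left out. Leptomeninges, choroid plexus, astrocyte and interneuron markers as single covariates were added after seeing the data. A renewed quantile normalisation was also not among the planned settings. Some listed genes are not reported here.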

Additional observations from a re-analysis of the deposited data

Results flagged for a closer look

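In 5 of 56 groups of 5 arrays, 1 array stood far from the other 4, where chance gives about 1 in 20. The Gabra4 level of Dp5/Dp1 replicate 5 was 11.49, with the other Dp5/Dp1 arrays between 11.56 and 11.58. Gabrq stood out in both genotypes, at 5.62 in control replicate 1 (the others 5.43 to 5.47) and at 5.66 in Dp5/Dp1 replicate 2 (the others 5.44 to 5.45). Gad1 was 11.20 in control replicate 1, with the other controls between 11.28 and 11.31. Slc32a1 was 8.52 in control replicate 4, with the other controls between 8.35 and 8.40.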

How the results depend on the processing

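Over 24 settings the 28 genes gave 666 values, none of which moved by over 1 standard deviation within genotypes. Gabra2, Gabra4, Gabrb1, Gabrr1, Gabrr3, Gabbr2, Gad1, Slc6a13 and Slc32a1 kept their sign throughout, and the other 19 changed it in at least 1 setting, 76 times in all. No GABA gene was called by limma in any setting; FCROS passed 1 of the 28, 5 of the 46 other GABA signalling genes and 1008 of all genes. The 41 calls over all genes became 26 with the replicate number as a block, 26 with choroid plexus and medial habenula markers as covariates, 25 with interneuron markers as a covariate and 21 without mutants 2 and 5, and 29 to 39 as each array was left out. The replicate numbers did not pair the arrays (same-number deviations correlated from -0.348 to 0.288, 1 of 5 pairs over 0.1), and the block changed no GABA call. The count of GABA genes at an unadjusted p under 0.05 was 5 with choroid plexus markers, 1 with interneuron markers (Gabra3, not one of the 3 above), and 1 (without mutant 3) to 4 (without control 4) as each array was left out. Genes whose groups did not overlap numbered 2 without mutants 2 and 5, and 1 to 2 as each array was left out. The second was Gabra4 without control 4 and Gabrr1 without control 5. Groups separate more readily with fewer arrays. No share of all genes is given for these settings, so these counts and those at an unadjusted p are not read as results about GABA genes. The gap Gad1 minus Gad2 differed by 0.0897 to 0.123 as each array was left out, with exact permutation p from 0.0476 to 0.0952, the latter without control 1, 3 or 4 or mutant 1, 2 or 3, and by 0.12 (exact permutation p = 0.107) without mutants 2 and 5. The correlation of Gad1, Gad2 and Slc32a1 with interneuron markers turned to -0.0929 without the 2 arrays farthest from the median. The causes were not tested. Probe sets near background, 6 of the 28, limit what their values show.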
